A study of Mus musculus with 50 samples.

Results

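RTS0061870, RTS0069143 and RTS0068472 are 3 of the 20175 probe identifiers analysed in a GeoMx digital spatial profiling study of mouse lung, an assay that reads barcoded RNA probes released from regions picked on a stained tissue slide. They were chosen because their CPM (counts scaled to 1000000 per segment) were lower in regions of a young wild type lung after ozone than in regions of a young wild type lung in filtered air, so the wild type ozone against air difference is described here without a test. RTS0061870 and RTS0069143 were picked in CD45- segments and RTS0068472 in CD68+ segments. None of the 3 identifiers matched a gene name in the reference tables used here, and they are therefore called by their probe numbers and given no gene or function.

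Each condition was 1 section, taken as 1 animal. The sections came from an SP-CI73T mutant mouse of 80 weeks after ozone, an SP-CI73T mutant mouse of 12 weeks after ozone, an SP-C wild type mouse of 12 weeks after ozone, and an SP-C wild type mouse of 12 weeks in filtered air. Exposed mice breathed ozone at 0.8 ppm for 3 h, and the study ended 72 h later. All mice lived in a germ free facility, per the labels' protocols. For the air segments the treatment label reads ozone and both title and time point read air, which was taken as correct. The old section is a mutant by its sample labels alone. The promoter, strain and zygosity behind the mutant allele are not given in the sources used here, no mutant section in air was analysed here, and the mutant sections were on another plate than the wild type sections, so that effects of genotype cannot be told apart from those of the plate.

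Ozone is an oxidant gas that injures the epithelium of airways and alveoli, and the injury is followed by entry and activation of macrophages. Alveolar type 2 cells make surfactant protein C, secrete surfactant and renew the alveolar epithelium, and mutations of the surfactant protein C gene are known from interstitial lung disease. CD68 marks macrophages, and CD45 marks cells of the blood lineage, so the CD45- segment holds epithelium, endothelium and stroma. Because no identifier could be paired with a gene, these identities rest on the staining and were not checked against marker transcripts. A segment pools many cells, so fewer cells of a type and less RNA per cell cannot be told apart.

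The 24 regions gave 24 CD68+ and 24 CD45- segments. Each mutant section had 3 injured and 3 peri-injured regions, the wild type ozone section had 4 of each, and the air section had 4 healthy regions. CD68+ segments held 20043 to 101968 counts and CD45- segments 32705 to 300708. A level of 100 CPM therefore rested on 2.00 to 10.2 counts in CD68+ segments and 3.27 to 30.1 counts in CD45- segments. CD45- segments were deeper in the wild type ozone section (103077 to 300708 counts) than in the air section (32705 to 54656 counts), and the part of this depth gap in the differences below was not tested. Both no template controls, with 229 and 4 counts in all, had 0 counts of each of the 3 probes.

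In CD45- segments RTS0061870 was lower in every wild type ozone region than in every air region. The 8 ozone regions had 46.2 CPM at the lowest, 111 at the median and 239 at the highest, and the 4 air regions had 283, 305, 375 and 428 CPM. The means were 114 ± 59.8 CPM after ozone (SD, n = 8 regions) and 348 ± 66.4 CPM in air (SD, n = 4 regions). The log2 difference of ozone from air was -1.53, a 2.88-fold lower level, with a pooled SD of regions of 0.46. These values come from 5 to 34 counts in each ozone region and 10 to 22 counts in each air region.

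The separation of RTS0061870 depended on how segments were scaled. Levels here use factors (TMM, trimmed mean of M values) from 1421 identifiers with enough counts. With factors from all 20175 identifiers, which were computed first, its difference was -1.09 and 7 of 8 ozone regions lay below all air regions, so that it did not meet the rule of a log2 difference of -1 or lower with no overlap. The factors from all identifiers had a Pearson correlation of -0.88 with log2 depth over the 48 segments, against 0.052 for the factors used, and they put the median of all 1819 identifiers tested at 0.42, against 0.022. The change was made after the values from the first scaling had been seen. RTS0061870 met the rule under 5 of 7 settings tried, and besides the first scaling it missed it by counts per captured area, at -0.87 with 7 of 8 regions below air.

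RTS0069143 showed a fall of like size in CD45- segments. Its 8 wild type ozone regions had 142 CPM at the lowest, 220 at the median and 315 at the highest, while the air regions had 565, 609, 681 and 822 CPM. No ozone region reached the lowest air region, and the same was true with factors from all identifiers, where the log2 difference was -1.07. By captured area it was -0.76, with 5 of 8 regions below air. With the factors used it was -1.54 (pooled SD 0.32), with means of 220 ± 64.3 CPM after ozone (SD, n = 8 regions) and 669 ± 113 CPM in air (SD, n = 4 regions).

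RTS0068472 was lower after ozone in CD68+ segments and not in CD45- segments. In CD68+ segments the 8 wild type ozone regions ran from 69.5 through a median of 193 to 286 CPM, and the air regions had 349, 533, 613 and 658 CPM. The log2 difference was -1.39 (pooled SD 0.47), and all 8 ozone regions lay below all air regions under each of the 7 scalings or settings compared. In CD45- segments the ozone regions had 78.5 to 277 CPM with a median of 174, and the air regions had 77.9, 85.0, 136 and 141 CPM. That difference was 0.51 (pooled SD 0.50), the regions overlapped, and the air values rest on 3 to 6 counts each. Whether the difference of this probe differs between segment types was not tested, as the wild type contrast chose the probes.

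In the segments where they had not been picked, RTS0061870 and RTS0069143 were lower on average as well. RTS0061870 averaged 76.6 ± 44.2 CPM in CD68+ segments after ozone (SD, n = 8 regions) and 171 ± 76.3 CPM in air (SD, n = 4 regions), and only 3 of 8 ozone regions lay below all air regions. RTS0069143 averaged 82.8 ± 25.7 CPM after ozone (SD, n = 8 regions) and 231 ± 124 CPM in air (SD, n = 4 regions), with all 8 ozone regions below the air regions. This separation is narrow, as the lowest air regions had 123 and 125 CPM, from 3 and 5 counts. The highest ozone region had 115 CPM, from 6 counts. RTS0069143 met the rule there under 4 of 7 settings. It missed it with factors from all identifiers, at -0.93 with 4 of 8 below, by captured area, at -1.05 with 6 of 8 below, and with a prior count of 10, at -0.74 with 8 of 8 below. Neither probe passed the filter on low counts in CD68+ segments, where only RTS0068472 of the 3 did. The 477 identifiers tested in CD68+ segments therefore include neither of them.

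In CD45- segments 58 of 1819 identifiers (3.19%) had every wild type ozone region below every air region, and 20 (1.1%) also had a difference of -1 or lower. In CD68+ segments these were 14 (2.94%) and 7 (1.47%) of 477. In the other direction 37 identifiers (2.03%) in CD45- and 23 (4.82%) in CD68+ segments were higher by at least 1 with no overlap. Since these contrasts chose the probes, nothing is read from their place among those. Among the identifiers that were lower by this rule and had a mean level above the median, RTS0069143 and RTS0061870 stood in CD45- segments between RTS0068732 at -1.90 and RTS0064971 at -1.46. RTS0068472 stood in CD68+ segments between RTS0068462 at -3.16 and RTS0076368 at -1.23.

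The regions of the mutant ozone sections were not used to choose the probes, but the 4 air regions they are set against were. The differences of the mutant sections from air are therefore a description and no independent support for the fall. In CD45- segments of the old mutant section RTS0061870 had 122, 163 and 181 CPM in injured regions and 201, 203 and 210 CPM in peri-injured regions. All 6 regions lay below the lowest air region at 283 CPM, and the log2 difference from air was -0.87 (pooled SD 0.26). With factors from all identifiers it was -0.43, with 5 of 6 regions below air.

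RTS0069143 in the same segments of the old mutant section had 269, 301 and 370 CPM in injured regions and 255, 347 and 429 CPM in peri-injured regions, against 565 CPM in the lowest air region. The 6 regions were again all below air, at a log2 difference of -0.98 (pooled SD 0.25). Of 539 identifiers tested, 30 (5.57%) had all old mutant regions below all air regions, and 4 (0.742%) also had a difference of -1 or lower, which neither probe did. Scaled within these sections alone, RTS0069143 reached -1.06 and met the rule for a lower level, as did 6 of 539 identifiers. It met the rule under no other setting tried. The difference was -0.52 with factors from all identifiers and -0.80 by library size, each with all 6 regions below air. By captured area it was -0.30, and only 2 of 6 regions lay below all air regions.

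In the young mutant section both probes overlapped with air in CD45- segments. RTS0061870 there had 276, 298 and 446 CPM where injured and 187, 199 and 268 CPM where peri-injured. Region 3, an injured one, lay above every air region, and 4 of 6 lay below all of them. The log2 difference from air was -0.33 (pooled SD 0.35). It was 0.021 with factors from all identifiers and 0.21 by captured area, so its sign turned with the scaling. The median of all 1029 identifiers tested moved as well, from 0.037 to 0.35 and 0.56. RTS0061870 lay below that median under each of these scalings.

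RTS0069143 had 162, 239 and 708 CPM in young mutant injured regions and 517, 568 and 630 CPM in peri-injured ones. Injured region 3 was within the air range, and the other injured regions were far below it. The log2 difference from air was -0.63 (pooled SD 0.59), with 3 of 6 regions below all air regions. With factors from all identifiers it was -0.27 and by captured area -0.086, each with 2 of 6 regions below and 1 above all air regions. No difference of at least 1 without overlap was found for any of the 3 probes in this section, where 7 of 1029 identifiers (0.68%) were lower and 11 (1.07%) higher by that rule in CD45- segments, and 3 (1.06%) and 5 (1.76%) of 284 in CD68+ segments.

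RTS0068472 in CD68+ segments split by region type in the young mutant section. Its injured regions had 55.7, 132 and 165 CPM, all below the lowest air region at 349 CPM. Its peri-injured regions had 323, 688 and 878 CPM, of which the last 2 were above the highest air region at 658 CPM. The log2 difference from air was -2.05 for injured regions and 0.14 for peri-injured regions. In the old mutant section the injured regions had 254, 330 and 555 CPM and the peri-injured regions 430, 475 and 514 CPM, and 2 of 6 lay below all air regions, at a difference of -0.33 (pooled SD 0.40) that turned to 0.53 by captured area.

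RTS0061870 in CD68+ segments was high in injured regions of the young mutant section, at 395, 444 and 1615 CPM from 9, 27 and 58 counts. The air regions had 73.5, 150, 213 and 247 CPM, so all 3 injured regions were above air. The peri-injured regions of that section had 76.4, 133 and 231 CPM, within the air range. RTS0068472 in CD45- segments of the old mutant section was above air in 5 of 6 regions, with a log2 difference of 0.93 (pooled SD 0.50). It did not meet the rule for a higher level, which 20 of 539 identifiers (3.71%) did. It met the rule at 1.32 with factors from all identifiers, at 1.09 by library size and at 1.68 by captured area. Under these scalings 72, 39 and 109 of the 539 identifiers met it. The medians of all identifiers were then 0.52, 0.26 and 0.79.

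The other levels of the mutant sections overlapped with air. RTS0069143 in CD68+ segments had 115, 148 and 187 CPM in injured and 148, 204 and 247 CPM in peri-injured regions of the old mutant, and 49.4, 87.7 and 139 CPM in injured and 184, 191 and 426 CPM in peri-injured regions of the young mutant, against 123, 125, 331 and 346 CPM in air. Of these 12 regions 3 were below every air region by CPM. RTS0068472 in CD45- segments had 130, 155 and 189 CPM in injured and 219, 322 and 451 CPM in peri-injured regions of the old mutant, and 92.3, 140 and 167 CPM in injured and 142, 220 and 234 CPM in peri-injured regions of the young mutant. RTS0061870 in CD68+ segments differed from air by 0.86 on the log2 scale in the young and -0.50 in the old mutant, and the difference of the old mutant turned to 0.28 by captured area. RTS0069143 in CD68+ segments differed from air by -0.42 in the young and -0.25 in the old mutant, which turned to 0.49 and 0.58 by captured area. By area the median of all identifiers tested in CD68+ segments was itself 0.91 above air in the young and 0.90 in the old mutant. The 3 comparisons with air share the same 4 air regions and are not independent of each other.

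Between the ozone sections, RTS0061870 averaged 279 ± 93.1 CPM in CD45- segments of the young mutant section (SD, n = 6 regions) and 114 ± 59.8 CPM in the wild type section (SD, n = 8 regions). The log2 difference was 1.20, with 4 of 6 mutant regions above all wild type regions. RTS0069143 averaged 471 ± 220 CPM in the young mutant section (SD, n = 6 regions) and 220 ± 64.3 CPM in the wild type section (SD, n = 8 regions), a difference of 0.90, also with 4 of 6 above. The probes were chosen for low values in these wild type regions, so these differences are given as a description. RTS0068472 did not separate the sections in CD45- segments, at -0.021.

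The old and young mutant sections, which were on the same plate, overlapped for all 3 probes. In CD45- segments the old minus young log2 differences were -0.54 for RTS0061870, -0.35 for RTS0069143 and 0.44 for RTS0068472. In CD68+ segments they were -1.36 for RTS0061870, with a pooled SD of 1.20, 0.17 for RTS0069143 and 0.62 for RTS0068472. With 1 section per age there is no test.

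The comparison of segment types is another contrast than the one that chose the probes, but its sums include the wild type ozone and air segments that the rule used. RTS0069143 and RTS0061870 were picked in CD45- segments, and of the 3 probes RTS0068472 alone passed the filter in CD68+ segments, so that their levels in the 2 segment types are not free of the choice. Counts were summed per section and segment type and tested with edgeR's quasi-likelihood test over 14591 identifiers with the section as a block. At an adjusted p under 0.05, CD68+ segments were higher for 274 of these (1.88%) and lower for 161 (1.1%). RTS0069143 was lower in CD68+ segments, RTS0068472 was higher, and RTS0061870 did not pass. In the 2 mutant sections alone, which the rule did not use, none of the 3 passed.

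RTS0069143 was lower in the CD68+ than in the CD45- segment of all 24 regions. Its summed levels in CD68+ and CD45- segments were 178 and 327 CPM for the old mutant, 171 and 400 CPM for the young mutant, 83.3 and 202 CPM for the wild type after ozone, and 250 and 655 CPM in air. Its log2 fold change of CD68+ over CD45- was -1.08, with an SE of 0.17 (edgeR adjusted p = 0.000168). The call held without any 1 section, but each of these fits still included a section that the rule used. In the mutant sections alone the fold change was -0.95, with an SE of 0.24 (edgeR adjusted p = 0.246).

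RTS0068472 was higher in CD68+ segments of all 4 sections by their means, and in 17 of 24 regions. Its summed levels in CD68+ and CD45- segments were 196 and 181 CPM after ozone in the wild type, against 525 and 107 CPM in air. In the wild type ozone section 3 of 8 regions were higher in the CD68+ segment, and in air 4 of 4. CD68+ over CD45- its log2 fold change was 1.03, with an SE of 0.22 (edgeR adjusted p = 0.00370). Without segments under 50000 counts it was 0.60 (edgeR adjusted p = 0.385). In the mutant sections alone it was 1.04, with an SE of 0.23 (edgeR adjusted p = 0.162). The other alternatives on sums per section gave an edgeR or DESeq2 adjusted p of 0.00319 to 0.0294. With regions as libraries the edgeR adjusted p was 1.30e-05 with the region and 0.00142 with the section as block. These values are too small for statements on animals, because regions share an animal.

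RTS0061870 had a log2 fold change of -0.097, with an SE of 0.24 (edgeR adjusted p = 0.946). It was lower in the CD68+ segment of 15 of 24 regions, and in the young mutant section the summed level was 517 CPM for CD68+ against 266 CPM for CD45-. Without the air, wild type ozone or old mutant section the sign turned, and in the mutant sections alone the fold change was 0.41 (edgeR adjusted p = 0.875).

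The contrast of injured with peri-injured regions within the ozone sections was not used by the rule, although the wild type ozone regions in it were. None of the 3 probes passed edgeR's adjusted p of 0.05 in either segment type. In CD68+ segments 9 of 3176 identifiers (0.283%) were higher and 8 (0.252%) lower in injured regions, and in CD45- segments 34 of 16703 (0.204%) and 24 (0.144%). DESeq2 also called none of the 3 after adjustment in either segment type.

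RTS0068472 had lower means in injured CD68+ regions of all 3 ozone sections, with log2 differences of -0.37 in the old mutant, -2.19 in the young mutant and -0.74 in the wild type. Wild type injured regions had 69.5, 153, 177 and 186 CPM, and wild type peri-injured regions had 201, 245, 265 and 286 CPM, without overlap. The young mutant section also had no overlap, and the old mutant section had 1 injured region above its peri-injured ones. With factors from all identifiers only 2 of 4 wild type injured regions lay below all peri-injured ones, at -0.67, while the young mutant kept 3 of 3. The share of all identifiers without overlap between these region types is not given here. By edgeR the log2 fold change was -1.01, with an SE of 0.26 (adjusted p = 0.0802). Without the filter on low counts the adjusted p was 0.0421, and it ranged from 0.0108 to 0.851 when 1 section or region was left out.

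A permutation of region types within sections was run on single regions, whose p-values are too small for statements on animals because regions share an animal. The mean difference of RTS0068472 in CD68+ segments was -1.10 on the log2 scale, with an exact two-sided permutation p of 0.000929 and 0.00557 after Benjamini-Hochberg adjustment over the 6 values of 3 probes and 2 segment types. With 28000 arrangements the smallest p was 7.14e-05. The other 5 values had adjusted exact permutation p-values of 0.0501 to 0.865. With a prior count of 10, all of them but RTS0061870 in CD45- segments had 0.0441. With factors from all identifiers, RTS0069143 had 0.147 in CD68+ and 0.143 in CD45- segments, and RTS0068472 had 0.176 in CD45- segments. By library size these were 0.0580, 0.0580 and 0.0928. RTS0061870 in CD68+ segments had 0.0519 with factors from all identifiers and 0.0580 by library size.

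RTS0061870 had higher values in injured CD68+ regions of both mutants, with log2 differences of 1.35 in the old and 2.11 in the young mutant, and not of the wild type, at -0.39. The old mutant injured regions had 115, 152 and 332.8 CPM and the peri-injured regions 29.7, 61.6 and 90.5 CPM. The latter rest on 2 to 4 counts each. In the wild type ozone section the means were 58.6 CPM for injured and 94.6 CPM for peri-injured regions, which overlapped. Over the 3 sections edgeR gave a log2 fold change of 1.32, with an SE of 0.36 (adjusted p = 0.106). It was 2.17 (edgeR adjusted p = 0.00116) without the wild type section, where 13 of 2641 identifiers were called higher and 8 lower. Without the young mutant section it was 0.49 (edgeR adjusted p = 0.906). Without the old mutant section it was 1.12 (edgeR adjusted p = 0.994). With all 3 sections but without injured region 3 of the young mutant, at 1615 CPM, it was 0.89 (edgeR adjusted p = 0.700).

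RTS0069143 had edgeR log2 fold changes of -0.48 (adjusted p = 0.782) in CD68+ and -0.52 (adjusted p = 0.337) in CD45- segments. Its injured CD45- regions in the wild type ozone section had 142, 147, 171 and 217 CPM, all below the peri-injured regions at 222, 267, 282 and 315 CPM. The mutant sections overlapped. In the old mutant 0 of 3 injured regions lay below all peri-injured ones (-0.11), and in the young mutant 2 of 3, with 1 above all (-0.85). How many of all identifiers separate like the wild type section is not given here, so nothing is read from that separation. An interaction term asked whether the injury difference depended on the segment type, over 9319 identifiers, of which 4 (0.0429%) were called higher and 2 (0.0215%) lower. It was 1.31 for RTS0061870 (edgeR adjusted p = 0.933), 0.10 for RTS0069143 (edgeR adjusted p = 0.999) and -0.58 for RTS0068472 (edgeR adjusted p = 0.9902).

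The probes did not vary as one group across segments. In CD45- segments RTS0061870 and RTS0069143 had a Pearson correlation of 0.67 over 24 segments, which share sections and depth, and in CD68+ segments 0.021. Both were picked for the same wild type ozone against air fall in CD45- segments, so the correlation there is not free of the choice. RTS0069143 and RTS0068472 had 0.64 in CD68+ and -0.25 in CD45- segments. The identifiers most like each probe over the 24 segments of the type in which it was picked, among those with a mean of at least 200 CPM, were RTS0068682 (0.80) and RTS0076158 (0.77) for RTS0061870, RTS0061658 (0.85) and RTS0068234 (0.81) for RTS0069143, and RTS0076763 (0.86) and RTS0075938 (0.84) for RTS0068472. RTS0068682 and RTS0076158 were themselves lower by the rule in wild type CD45- segments, at -1.39 and -1.45, so this likeness partly repeats the choice. These correlations describe 4 sections and carry no test.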

How the data were processed

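The deposited values were deduplicated counts per probe barcode, made with the GeoMx NGS Pipeline 2.3.4, per the file headers; absent rows were set to 0. The authors' deposited worksheets also gave an area per segment (a signal with no unit printed). Identifiers outside 1 continuous number range (63 of 20238) stayed out of library sizes.

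The probes, rule and tests were chosen with earlier results of these data known. CPM and log2 differences (prior count 2) used TMM factors over all 48 segments. These factors were first computed on all 20175 identifiers. After the differences from air had been seen, they were replaced by factors from 1421 identifiers kept by filterByExpr (minimum count 10), because the first correlated with log2 depth (Pearson r -0.88, against 0.052). This made RTS0061870 in CD45- and RTS0069143 in CD68+ segments of the wild type comparison meet the rule of at least 1 with no overlap (under 5 and 4 of 7 settings), and RTS0068472 in CD45- segments of the old mutant no longer meet it. Other scalings tried were TMM within 2 sections, library size, upper quartile and area.

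Sums per section were tested with edgeR 4.0.16 (R 4.3.3, section as block, Benjamini-Hochberg) and DESeq2 1.42.0. The edgeR fits of segment types and of injury were also run on simulated counts, and the interaction term and DESeq2 were not. Region numbers pair the 2 segments captured from each region; their deviations had a median correlation of 0.055, against -0.027 for other regions. No 2 regions of a group agreed within sampling noise (chi-square per degree of freedom of at least 1.35).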

Additional observations from a re-analysis of the deposited data

Results flagged for a closer look

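For RTS0069143 the wild type ozone section had 32.3 CPM, from 2 counts, in injured region 2 (CD68+), where the other 3 injured regions had 99.4 to 115 CPM. It stood apart from its group by its gap, 1 of 18 groups tested, and chance sets about 1 in 20 apart.

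RTS0061870 in CD45- segments moved in opposite ways with injury in the mutant sections. In the young mutant section all 3 injured regions were above all peri-injured regions (log2 difference 0.58), and in the old mutant section all 3 were below (-0.37). The share of all identifiers that separate in these ways is not given here, so the pattern is not read as a trait of this probe. The difference between these sections was not tested, and with factors from all identifiers 1 of 3 injured regions of the old mutant was below its peri-injured regions (-0.12).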

How the results depend on the processing

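The calls on segment types stayed on their side of the threshold under upper quartile factors, DESeq2, no filter and regions as libraries. With the region as a replicate block the log2 fold changes were -0.39 for RTS0061870, -1.36 for RTS0069143 and 0.70 for RTS0068472, and no call changed. Without segments under 50000 counts RTS0068472 had 0.60 and lost its call. In the 2 mutant sections alone, added after seeing the data, the values were 0.41 for RTS0061870, -0.95 for RTS0069143 and 1.04 for RTS0068472, with no call, and 24 identifiers were higher and 2 lower of 16390. Leaving out a section, RTS0061870 ran from -0.66 to 0.14. For injury in CD68+ segments, no filter gave 1.35 for RTS0061870 and -0.97 for RTS0068472, both then past the threshold, and leaving out 1 section or region gave 0.49 to 2.17 and -1.46 to -0.52. RTS0061870 passed without the wild type ozone section, young mutant region 1 or wild type ozone region 3, and RTS0068472 without old mutant region 11, young mutant region 1 or wild type ozone region 3. In CD45- segments RTS0061870 ran from -0.34 (without the young mutant) to 0.37, and the interaction of RTS0069143 from -0.18 to 0.35. In permutations, only a prior count of 10 brought more values past the threshold (adjusted exact permutation p = 0.0441). They were RTS0061870 (0.72) and RTS0069143 (-0.34) in CD68+ and RTS0069143 (-0.40) and RTS0068472 (-0.37) in CD45- segments. RTS0061870 there turned to 0.045 by library size and 0.12 with factors from all identifiers.

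Factors from all identifiers were computed first and replaced after the differences had been seen; those within 2 sections were also added after seeing the data. Factors from all identifiers put the differences from air in CD45- segments at -1.07 for RTS0069143 in the wild type, at 0.021 for RTS0061870 and -0.27 for RTS0069143 in the young mutant, and at -0.43 for RTS0061870 and -0.52 for RTS0069143 in the old mutant. RTS0061870 in the wild type then had 7 of 8 regions below air (-1.09), and RTS0069143 in CD68+ segments 4 of 8 (-0.93). The old mutant RTS0068472 in CD45- segments met the rule for a higher level at 1.32, as it did by library size at 1.09. A prior count of 10 gave -1.03 for RTS0061870 in wild type CD45- segments and -0.74 for RTS0069143 in wild type CD68+ segments. Factors within 2 sections moved no difference by more than its pooled SD.

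Counts per captured area put the median of all identifiers at 0.41 in CD68+ and 0.81 in CD45- segments of the wild type comparison, so changes are read relative to those shifts. By area the CD45- differences from air were -0.87, -0.76 and 1.35 in the wild type for RTS0061870, RTS0069143 and RTS0068472, and -0.22, -0.30 and 1.68 in the old mutant. In the young mutant they were 0.21 for RTS0061870, -0.086 for RTS0069143 and 1.06 for RTS0068472. In CD68+ segments RTS0061870 had 0.28 in the old mutant and RTS0069143 -1.05 in the wild type, RTS0069143 had 0.49 in the young and 0.58 in the old mutant, RTS0068472 had 0.53 in the old mutant, and RTS0069143 differed by 1.54 between young mutant and wild type ozone. By region type, RTS0068472 in CD68+ segments of the young mutant differed from air by -2.05 in injured and 0.14 in peri-injured regions. RTS0061870 differed between young mutant and wild type ozone by 3.09 in injured and 0.60 in peri-injured CD68+ regions, and between old and young mutant by -1.01 and -0.067 in CD45- regions. The causes of these changes were not tested. The low counts of CD68+ segments limit all values there, and intervals between animals cannot be had from 1 section per condition.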
